A study of Mus musculus with 4 samples.

Results

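The genes described here are 6 members of the Ms4a family that are known from myeloid cells, Ms4a4a, Ms4a4c, Ms4a6b, Ms4a6c, Ms4a6d and Ms4a7. They are 6 of the 19 Ms4a genes and of the 23390 gene models in the count table, and were found by matching Ensembl identifiers to gene symbols. The group was picked with the difference between treated and control libraries in view, so that difference is described for the members and not tested. RNA was sequenced from bone marrow cells of wild-type C57BL/6J mice. The marrow was grown for 3 days in medium conditioned by L929 fibroblasts, which supplied the equivalent of 20 ng/ml M-CSF, and the adherent macrophages were then driven towards osteoclasts with 40 ng/ml RANKL. They received DMSO, the solvent (2 libraries), or 10 µM BMS-582949, an inhibitor of the kinase p38α (2 libraries), and RNA was collected at day 4; the sources disagree on whether the compound was present for 3 or for 4 days. All 4 libraries thus share strain, M-CSF and RANKL. The protocol text names the compound for every sample, so groups follow the treatment label.

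Ms4a proteins (membrane-spanning 4-domain family, subfamily A) cross the membrane several times and act mostly as partners of receptors at the cell surface or in endosomes. The best known are Ms4a1, the CD20 antigen of B cells, and Ms4a2, the beta chain of the high-affinity IgE receptor of mast cells. Several others are transcribed in monocytes and macrophages, the cells from which osteoclasts form by fusion. Ms4a4a is a macrophage surface protein that associates with the beta-glucan receptor Dectin-1, and Ms4a7 is a marker used for tissue macrophages. The genes lie side by side in 1 cluster.

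The Ms4a6 genes resemble each other in sequence. The first 120 coding bases of the 3 of them are therefore shown to let a reader judge how separable their reads are. They come from the GENCODE M21 annotation on GRCm38 and are read 5′ to 3′ from the start codon. Capitals mark the 22 positions at which the 3 genes are not all the same, and the other 98 positions are identical.
Ms4a6b: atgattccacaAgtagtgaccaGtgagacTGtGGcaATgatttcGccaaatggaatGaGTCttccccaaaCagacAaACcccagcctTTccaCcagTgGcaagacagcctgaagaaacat
Ms4a6c: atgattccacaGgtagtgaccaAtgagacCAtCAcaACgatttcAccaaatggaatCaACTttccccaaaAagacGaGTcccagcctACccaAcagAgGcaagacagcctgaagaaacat
Ms4a6d: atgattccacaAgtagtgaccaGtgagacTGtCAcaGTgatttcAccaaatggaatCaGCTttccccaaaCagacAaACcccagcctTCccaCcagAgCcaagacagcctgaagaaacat
The capitals occur along most of the stretch, and its last bases are the same in all 3 genes. Over the whole coding sequence, Ms4a6b was 80.1% identical to Ms4a6d and 74.7% to Ms4a6c, while Ms4a6c and Ms4a6d were 67.2% identical. Columns with a gap count as not identical in all these percentages. The Ms4a6c coding sequence is shorter, at 651 bases against 732 for Ms4a6b and 741 for Ms4a6d, which lowers its values. Which copy is nearest to Ms4a6b thus cannot be read from them. Of 50-base transcript windows, Ms4a6b shared 117 with Ms4a6c and 40 with Ms4a6d. Ms4a4a and Ms4a4c were 59.9% identical, and the remaining pairs of members fell between 46.4% and 52.4%. The nearest relatives of Ms4a4c are not members: its coding sequence was 91.7% identical to Ms4a4b and 85.7% to Ms4a4d.

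The upstream sequences of Ms4a6b and Ms4a6c, which had the largest well-counted differences between the groups, were alike in part. Whether that likeness goes with the differences was not tested. Ms4a6d, the remaining Ms4a6 copy, had no upstream sequence at hand. The 250 bases before each RefSeq transcription start (GRCm38.p6, plus strand) are chr19:11518309-11518558 for Ms4a6b and chr19:11469118-11469367 for Ms4a6c. The GENCODE model of Ms4a6b begins at 11516512, before these bases, so they precede a start inside that model. Capitals mark stretches of at least 12 bases that both hold.
Ms4a6b: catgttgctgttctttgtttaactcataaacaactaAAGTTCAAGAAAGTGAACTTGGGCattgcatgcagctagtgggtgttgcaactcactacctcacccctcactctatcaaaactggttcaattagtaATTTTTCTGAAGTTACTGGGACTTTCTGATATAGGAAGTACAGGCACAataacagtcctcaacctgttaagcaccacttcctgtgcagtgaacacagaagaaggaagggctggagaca
Ms4a6c: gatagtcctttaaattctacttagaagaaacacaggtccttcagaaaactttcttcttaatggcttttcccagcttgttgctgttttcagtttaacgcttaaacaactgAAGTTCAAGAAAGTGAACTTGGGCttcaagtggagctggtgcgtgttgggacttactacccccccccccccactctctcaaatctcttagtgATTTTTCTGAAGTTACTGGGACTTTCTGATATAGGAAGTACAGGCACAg
Shared stretches of 24 and 48 bases made up 72 bases of each window, and the best local alignment was identical at 148 of 180 columns (82.2%). Next among the pairs of members' upstream sequences by identical bases was Ms4a7 with Ms4a6c, at 38 of 61 columns. Aligned end to end, the 300-base windows of Ms4a6b and Ms4a6c were 51.2% identical, and the other pairs of windows 45.0% to 50.7%. The 48-base stretch began at -118 from the start site in Ms4a6b and at -49 in Ms4a6c. Matching bases are thus offset between these windows, and ends left without a partner lower the end-to-end value. That value therefore does not show how far the likeness reaches. RefSeq windows of 300 bases (250 before to 50 after the start) were at hand for 5 members, 6 windows in all since Ms4a7 has 2, and Ms4a6d had no entry. Among the other pairs of these windows, no shared stretch was longer than 9 bases.

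Motifs were searched on both strands of the same 6 windows. The letters TGANTCA, a loose form of the AP-1 motif of Fos and Jun proteins that takes any middle base, were found in 1 window. It was that of Ms4a7 at chr19:11334646-11334945 on the minus strand, as TGATTCA beginning 81 bases before the start. That start lies inside the gene, which spans 11321039 to 11336146. The other Ms4a7 window, at the annotated 5′ end (chr19:11336097-11336396), held no match. The letters TGANTCA were present in 7.81% of the 32851 windows of all genes. None of the 6 windows held the PU.1 letters AGAGGAAG or GAGGAAGT (6.68% of all windows), the interferon response element (GAAA, any 2 bases, GAAA; 3.44%) or the E-box CACGTG (7.15%). A match is a description of letters, and an absent match says only that these letters are not in the window. The Ms4a4c window (chr19:11407411-11407710, plus strand) lies inside its GENCODE model, which begins at 11404770. The Ms4a6b window likewise lies inside its model, so the annotated 5′ ends of these genes were not searched.

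In the cultures, all 6 members had higher levels in both BMS-582949 libraries than in either DMSO library, but by very different amounts. Levels are given as CPM, counts relative to a library total that is scaled by TMM, which corrects for depth and for a few genes taking many reads. Ms4a6b and Ms4a6c stood 4.57-fold and 3.67-fold higher with the inhibitor. Ms4a6d, the most abundant member per exon length, was 1.28-fold higher, and Ms4a7 1.72-fold. Ms4a4a and Ms4a4c were rare in every library. Groups that do not overlap in this direction were common: 5473 of 13214 tested genes (41.4%) had both treated libraries above both controls. In bulk RNA, a larger number of cells that carry a transcript cannot be told apart from more transcript per cell.

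**Figure D1:**
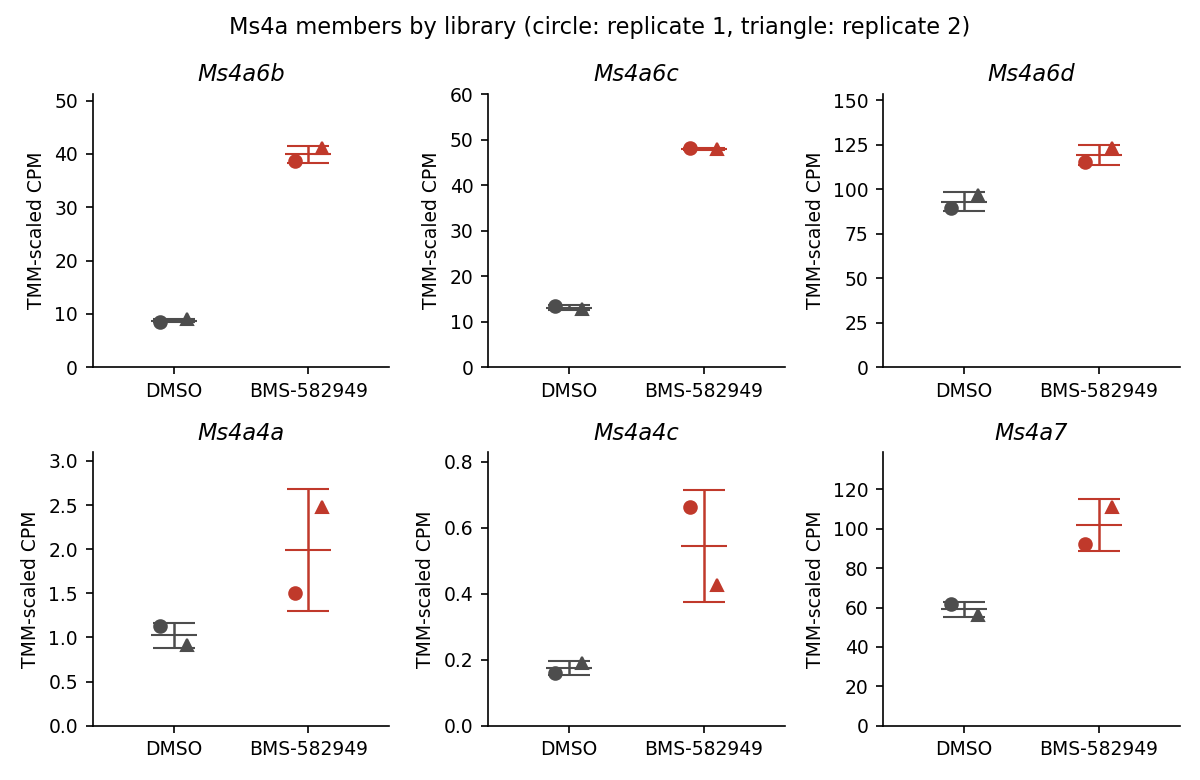
TMM-scaled CPM (y axis, from 0, a scale of its own in each panel) of the 6 members in the 2 DMSO and 2 BMS-582949 libraries (x axis). Points are libraries and bars are group means; in every panel both treated points lie above both control points, by the widest margin relative to the control for Ms4a6b and Ms4a6c and the narrowest for Ms4a6d.

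Ms4a6b (ENSMUSG00000024677, chr19:11516512-11531256, plus strand) encodes a member expressed in monocytes, macrophages and T cells. With DMSO it measured 8.49 and 8.97 CPM (264 and 283 counts), and with BMS-582949 38.8 and 41.1 CPM (1753 and 1738 counts). Both treated libraries were far above both controls, and the libraries of each group lay close together. The group means were 8.73 ± 0.337 and 39.9 ± 1.64 CPM (SD, n = 2), a log2 fold change of 2.19 with a standard error of 0.12. That difference ranked 124 among the 13214 tested genes.

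Ms4a6c (ENSMUSG00000079419, chr19:11469366-11482192, plus strand) also stood several-fold higher with the inhibitor. Its coding sequence is 74.7% identical to that of Ms4a6b when gap columns are counted as not identical. Its DMSO libraries read 13.4 and 12.7 CPM (417 and 401 counts), and its BMS-582949 libraries 48.1 and 47.9 CPM (2177 and 2025 counts). The treated libraries were nearly equal and did not approach the controls. Means were 13.1 ± 0.500 and 48.0 ± 0.193 CPM (SD, n = 2), with a log2 fold change of 1.88 and a standard error of 0.11, rank 253. A limit applies to this gene: 1088 of its exonic bases (53.1%) overlap the gene model BE692007 on the opposite strand. Counts of that model were not analysed here, and the sources used here do not give whether counting used strand, so transcripts of both strands cannot be told apart over those bases.

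Ms4a6d (ENSMUSG00000024679, chr19:11586604-11604849, minus strand), the remaining Ms4a6 copy, had the highest level of the members per exon length. It measured 89.1 and 96.8 CPM with DMSO (2771 and 3054 counts) and 115.3 and 123.0 CPM with BMS-582949 (5216 and 5204 counts). The groups did not overlap, but the gap between them was only a few times the gap within them. The log2 fold change was 0.36 with a standard error of 0.07, at percentile 68.5 of all tested genes. Scaling matters most here: with library size alone, the value was 0.74, while the median of all genes moved from 0.03 to 0.41, so Ms4a6d stood 0.33 above that median under both scalings.

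Ms4a7 (ENSMUSG00000024672, chr19:11321039-11336146, minus strand), the tissue macrophage marker, read 61.9 and 56.2 CPM with DMSO (1923 and 1774 counts). It read 92.5 and 111.2 CPM with BMS-582949 (4184 and 4706 counts). Treated replicate 2 was the high library, and the lower treated library was still above both controls. Means of 59.0 ± 3.99 and 101.9 ± 13.2 CPM (SD, n = 2) gave a log2 fold change of 0.79 with a standard error of 0.09.

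Ms4a4a (ENSMUSG00000101389, chr19:11375523-11392790, plus strand), the Dectin-1 partner, was found at only 1.13 and 0.919 CPM with DMSO (35 and 29 counts). With BMS-582949 it was found at 1.5 and 2.48 CPM (68 and 105 counts). The treated libraries were further from each other than the lower of them was from the controls. The log2 fold change of 0.96 (standard error 0.39) became 0.53 if BMS-582949 replicate 2 was dropped and 1.27 if replicate 1 of that group was, so its size rests on which treated library is used.

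Ms4a4c (ENSMUSG00000024675, chr19:11404770-11427246, plus strand), known from macrophages and T cells, was at the edge of detection. It had 5 and 6 counts with DMSO (0.161 and 0.190 CPM) and 30 and 18 counts with BMS-582949 (0.663 and 0.425 CPM). The treated libraries were higher, and they differed from each other in the reverse order to Ms4a4a. The log2 fold change was 1.62 with a standard error of 0.70. Both DMSO values were below the low-count limit of 0.272 CPM, so the gene entered the fit only through the treated libraries. Of the 6 members, 5 were past the edgeR threshold and higher (all but Ms4a4c), against 30.5% of tested genes called higher and 29.7% called lower; since the members were selected on this contrast, nothing is read from that count.

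**Figure D2:**
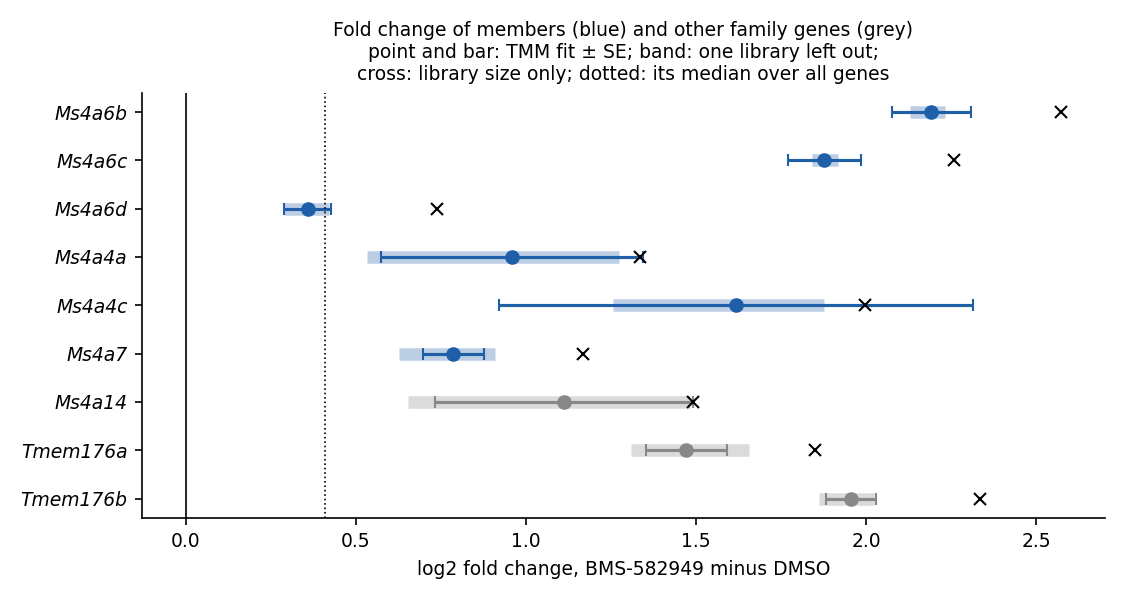
Log2 fold change, BMS-582949 minus DMSO (x axis), with its standard error, for the 6 members and for the relatives Ms4a14, Tmem176a and Tmem176b (y axis); the members' values are descriptions. Ms4a6b at 2.19, Tmem176b at 1.96 and Ms4a6c at 1.88 lie furthest right, with short error bars, Ms4a6d at 0.36 lies nearest 0, and Ms4a4a and Ms4a4c carry the longest bars.

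Agreement between libraries of 1 group was judged against genes of like abundance, those with a mean CPM within 2-fold of the member. Between the 2 BMS-582949 libraries, Ms4a6c had a log2 ratio (replicate 2 over replicate 1) of -0.0082, smaller in size than in all but 4.05% of 4398 like genes. Ms4a6b had a ratio of 0.084 and Ms4a6d of 0.093, near the middle of their like genes (percentiles 43.5 and 60.1). These 3 genes were measured almost alike in both treated libraries.

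The treated libraries disagreed on Ms4a7 more than on most genes of like abundance. Its log2 ratio of 0.27 was larger in size than that of 97.4% of 3321 like genes, whose median was 0.077 and 90th percentile 0.19, and counting error alone gives a standard deviation of 0.031. The disagreement was still smaller than the 0.79 between groups. Ms4a4a had a ratio of 0.72, where counting error gives 0.23, and Ms4a4c one of -0.64, where it gives 0.43. For these scarce transcripts the spread between treated libraries was close to the median of like genes for Ms4a4c (0.61) and above it for Ms4a4a (0.36).

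Levels can be set side by side between genes only per length. CPM was therefore divided by the length of each gene's merged exons in kilobases (CPM per kb). Merged exons held 836 bases for Ms4a4a, 1735 for Ms4a6d, 4453 for Ms4a7 and 4485 for Ms4a6b, while coding lengths ran from 651 to 801. Ranks and shares thus depend on the annotated exons, and 53.1% of the Ms4a6c length overlaps BE692007. With DMSO the order was Ms4a6d at 53.6 ± 3.12, Ms4a7 at 13.3 ± 0.896, Ms4a6c at 6.37, Ms4a6b at 1.95, Ms4a4a at 1.22 and Ms4a4c at 0.10 CPM per kb. No neighbours in that order overlapped in their libraries. With BMS-582949, Ms4a6d stayed first at 68.7 ± 3.13, but Ms4a6c at 23.4 and Ms4a7 at 22.9 ± 2.97 CPM per kb were no longer separable: the 2 libraries of Ms4a7 lay on either side of both Ms4a6c values. Ms4a6b followed at 8.90, Ms4a4a at 2.38 and Ms4a4c at 0.311 CPM per kb.

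The make-up of the members' RNA therefore differed between groups. Summed over the 6 genes, the level was 75.2 and 77.8 CPM per kb with DMSO and 121.5 and 131.6 with BMS-582949. Ms4a6d made up 68.4% and 71.7% of that sum with DMSO and 54.7% and 53.9% with BMS-582949. The share of Ms4a6c was 8.71% and 7.97% with DMSO and 19.3% and 17.7% with BMS-582949, and that of Ms4a6b 2.52% and 2.57% against 7.11% and 6.96%. Ms4a7 held a like share in all libraries, between 16.2% and 19%, so its groups overlapped on this measure.

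**Figure D3:**
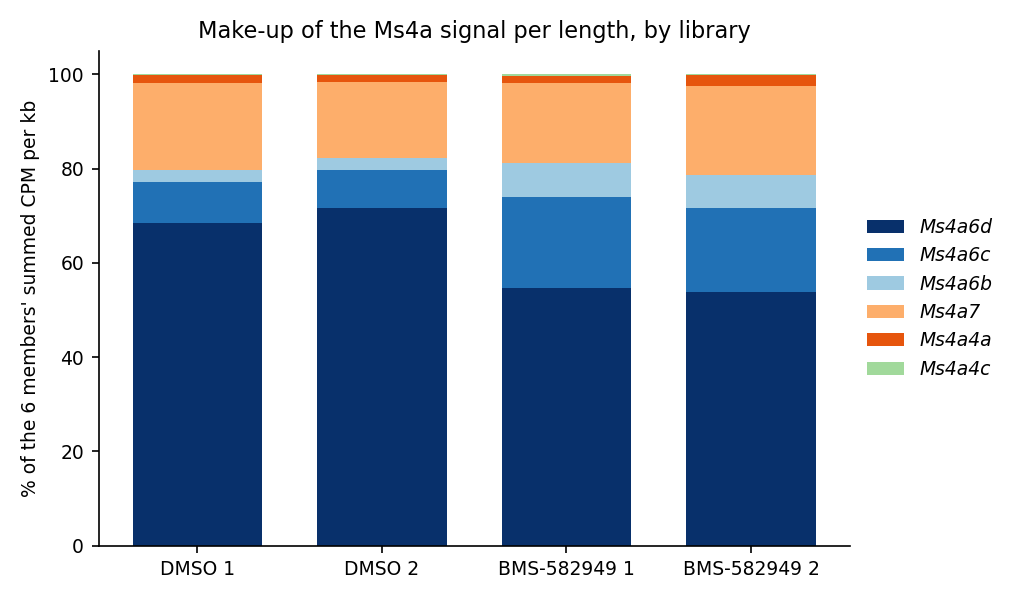
Share of the members' summed CPM per kb (y axis, percent) held by each of the 6 genes in each library (x axis), as stacked bars. The Ms4a6d segment takes 68.4% and 71.7% with DMSO and 54.7% and 53.9% with BMS-582949, where the Ms4a6c and Ms4a6b segments are wider; Ms4a4c, at most 0.312%, is too thin to see.

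Ratios of counts within a library do not depend on how libraries are scaled, and gave the same picture for the Ms4a6 copies. For every Ms4a6d count there were 0.0953 and 0.0927 Ms4a6b counts with DMSO, and 0.336 and 0.334 with BMS-582949. The ratio of Ms4a6c to Ms4a6d was 0.150 and 0.131 against 0.417 and 0.389. Ms4a6b and Ms4a6c also differed from each other, with ratios of 0.633 and 0.706 against 0.805 and 0.858. Ratios of this kind show unequal change and do not show that any of the genes was constant.

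Reads shared between copies could blur these values, so windows of each member's transcripts were looked up in the transcripts of all other genes. Of 50-base windows, 3.57% of those of Ms4a6b, 2.54% of Ms4a6d, 0.306% of Ms4a7 and none of 787 of Ms4a4a were found elsewhere. For Ms4a6c the share was 51.4%, most of it with the opposite-strand model BE692007 and 117 windows with Ms4a6b. Ms4a4c shared 8.19%, mostly with Ms4a4b. At 100 bases only Ms4a6c (45.8%, with BE692007) and Ms4a4c (1.66%, with Ms4a4b) kept any, so the Ms4a6 copies share no 100-base window with each other. How the authors treated reads that map to several places is not given in the sources used here, and its part in these values was not tested.

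Of the 13 other Ms4a genes, 7 had no count in any library, below a limit of 3 counts that equals 0.0764 to 0.0849 CPM by library size. Ms4a1, the CD20 gene, had 9 and 0 counts with DMSO and 5 and 0 with BMS-582949. Ms4a2, the IgE receptor chain, had 3 counts in BMS-582949 replicate 2 only, and Ms4a3, known from granulocyte and monocyte progenitors, had 6 and 21 counts against 0 and 4. Ms4a4b, the close copy of Ms4a4c, had 0 and 3 against 5 and 6, and Ms4a4d had 11 and 4 against 0 and 0. These 5 genes were too scarce to test, and the Ms4a4b counts, the nearest source of misplaced Ms4a4c reads, were fewer than those of Ms4a4c in each library.

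The only other Ms4a gene that could be tested was Ms4a14, beside Ms4a7 in the cluster, with 28 and 45 counts with DMSO and 84 and 135 with BMS-582949. It rose from a mean of 1.16 to 2.52 CPM, a log2 fold change of 1.11 with a standard error of 0.38 (edgeR, quasi-likelihood, with a Benjamini-Hochberg adjusted p of 0.0232). The call ended with DESeq2 (adjusted p = 0.0713), when DMSO replicate 1 was left out (0.0996, log2 fold change 0.82) or BMS-582949 replicate 2 was (0.26, log2 fold change 0.65). As for Ms4a7, BMS-582949 replicate 2 was its highest library.

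Tmem176a and Tmem176b are Ms4a-like membrane proteins of myeloid cells, encoded together on chromosome 6 and outside the cluster. Tmem176b measured 54.3 and 59.3 CPM with DMSO and 209.3 and 231.3 CPM with BMS-582949. Tmem176a measured 25.6 and 20.1 CPM against 58.4 and 68.5 CPM. Both rose: the log2 fold change was 1.96 (standard error 0.07) for Tmem176b and 1.47 (0.12) for Tmem176a, with edgeR adjusted p of 5.21e-10 and 3.71e-07. The fold of Tmem176b was thus of the size seen for Ms4a6c and Ms4a6b, though a difference between these folds was not tested. Their exons overlap each other by 2.13% and 3.42%.

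**Figure D4:**
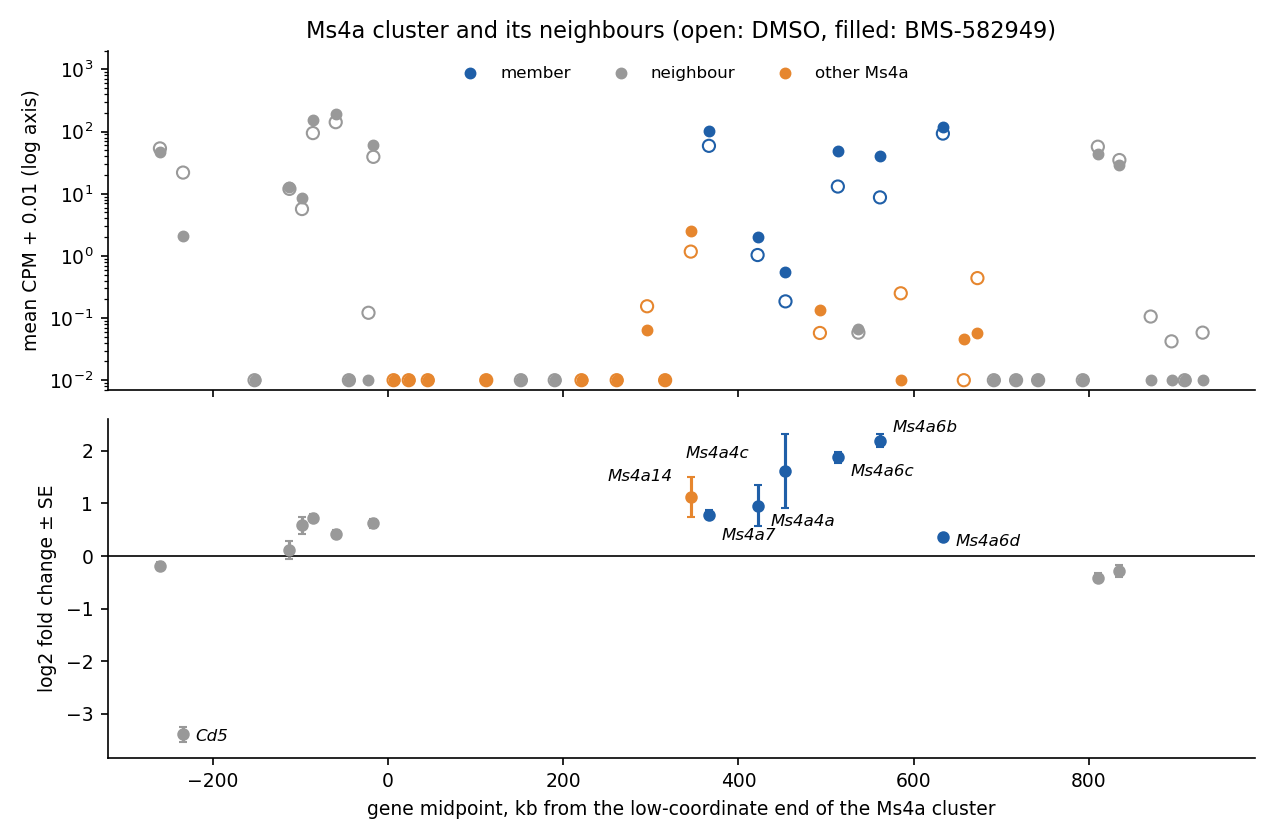
Genes of the Ms4a cluster and its neighbours by the distance of their midpoint from the low-coordinate end of the cluster (x axis, kb); upper panel, mean CPM plus 0.01 on a log axis (open DMSO, filled BMS-582949; points at the bottom are at 0), and lower panel, log2 fold change, BMS-582949 minus DMSO, with standard errors for tested genes. In the lower panel the members and Ms4a14 lie above 0, and the flanking neighbours lie between -0.41 and 0.73 except Cd5 at -3.39.

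On chromosome 19 the 19 Ms4a genes span 678.6 kb (10962293 to 11640851) and the members 283.8 kb of it. The 10 nearest genes on each side and 3 other genes inside the cluster served to show how the surroundings moved. Of these 23, 9 could be tested: 4 were called higher and 4 lower by edgeR, with a median log2 fold change of 0.11 beside 0.03 for all tested genes. Cd5, a scavenger-receptor-like protein of lymphocytes, was the neighbour with a difference above 2-fold. It fell by 3.39 on the log2 scale (standard error 0.15), from a mean of 21.9 to 2.09 CPM (edgeR adjusted p = 1.80e-09). The largest log2 fold changes among the 4 neighbours called higher were Tmem109 at 0.73 and Ccdc86 at 0.62; they are named after their values were seen.

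Genes listed here as partners of Ms4a proteins did not move in 1 direction. The list holds direct partners and also genes of their pathways or only linked to the family. Of these 15 genes, 13 were tested, of which 5 were called higher and 5 lower, with a median log2 fold change of 0.09. Over all tested genes, 30.5% were called higher and 29.7% lower. Trem2, a lipid receptor of macrophages linked to the human MS4A locus, rose from 174.6 ± 1.87 to 393.8 ± 27.5 CPM (log2 fold change 1.17, edgeR adjusted p = 1.45e-08). Its signalling adaptor Tyrobp fell from 1024 ± 77.6 to 438.8 ± 4.22 CPM (-1.22, edgeR adjusted p = 1.65e-08). Receptor and adaptor thus differed in direction. With library size alone the list had 7 called higher and 2 lower, and without DMSO replicate 1 it had 3 and 4.

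The Dectin-1 pathway, to which Ms4a4a belongs as a partner, was likewise split. Clec7a, which encodes Dectin-1, fell from 22.6 to 16.5 CPM (-0.45, edgeR adjusted p = 0.00429), a call that ended with library size alone (-0.07, adjusted p = 0.603). Syk, the kinase that Dectin-1 signals through, fell from 305.3 to 172.7 CPM (-0.82, edgeR adjusted p = 6.69e-07). Card9, the adaptor after Syk, rose with a log2 fold change of 0.43 (edgeR adjusted p = 0.00565, and 0.0554 without DMSO replicate 1).

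Among the IgE receptor genes that are classic partners of the family, Fcer1g, the shared gamma chain, fell from 329.8 to 266.6 CPM (-0.31, edgeR adjusted p = 0.00323). Its direction turned with library size alone, where it was 0.07 and not called (adjusted p = 0.375). Fcer1a, the IgE-binding chain, had no counts in any library. Of the Src-family kinases, Fyn rose from 15.1 to 32.6 CPM (1.11, edgeR adjusted p = 4.46e-06) and Lyn from 107.3 to 132.2 CPM (0.30, edgeR adjusted p = 0.00104). The remaining calls were weak. H2-Ab1, an antigen-presentation gene, rose by 0.38 (edgeR adjusted p = 0.0336), a call lost in 3 of 12 alternatives. Kit, the stem cell factor receptor, fell by 1.54 from a mean under 1 CPM (edgeR adjusted p = 0.0419), a call lost in 7 of 11.

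The genes whose pattern over the 4 libraries was most like each member were ranked by the root mean square difference of centred log2 CPM, over 8411 genes with a mean of at least 10 CPM. For Ms4a6b they were Ikzf1, a lymphoid and myeloid transcription factor, and Mki67, a proliferation marker, both at 0.044. For Ms4a6c they were Hmgb2, a chromatin protein, at 0.020 and Kif23, a cytokinesis kinesin, at 0.021. For Ms4a7 they were S1pr1, a sphingosine 1-phosphate receptor, at 0.020 and Dut, the dUTP-hydrolysing enzyme, at 0.030. For Ms4a6d they were Slc24a5 and Nutf2, both at 0.013. The pattern of Ms4a6d was a common one, with 1046 genes within 0.1 of it, against 140 for Ms4a7, 64 for Ms4a6c and 13 for Ms4a6b.

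For the rare members the nearest patterns lay further off. They were Evi2 (0.086) and Ppih (0.14) for Ms4a4a, and Mdc1 (0.094) and Dsn1 (0.10) for Ms4a4c, with 1 gene within 0.1 in each case. With 2 groups of 2 libraries, likeness mostly restates the size of the difference between groups.

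Markers of the cells in the cultures differed between groups beside the members. All 12 osteoclast markers fell (median log2 fold change -2.85), led by Acp5 (-3.21), the tartrate-resistant phosphatase, Oscar (-3.16), an osteoclast receptor, and Mmp9 (-3.09), a matrix protease. Their summed level was 100200 and 104600 CPM with DMSO and 12420 and 12560 CPM with BMS-582949, so in the controls they were present as the labels state. Of 19 macrophage markers tested, 11 rose and 3 fell (median 1.15), with Cx3cr1, the fractalkine receptor, up from 1.34 to 32.4 CPM. Lyve1, a marker of perivascular macrophages, fell by 3.01. The summed level of the list was 6432 and 6695 CPM with DMSO and 4563 and 5015 CPM with BMS-582949, a sum dominated by Cd68 and Csf1r, which fell from 3464 to 1358 and from 1977 to 883.4 CPM (chosen after their values were seen). Without these 2 genes it was 1104 and 1141 CPM with DMSO and 2427 and 2668 CPM with BMS-582949. The part of these shifts in the members' values was not tested.

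Interferon-induced genes rose in 10 of 10 tested cases (12 listed, median 1.78), and the largest among those with a mean of at least 1 CPM were Cxcl10 at 2.35, Oasl2 at 2.20 and Ifit2 at 1.93. Of 10 monocyte markers, 2 rose, Spn at 1.95 and Vcan at 0.51, and 2 fell, among them Hp at -2.28. The list summed to 61.4 to 66.6 CPM with DMSO and 116.5 to 121.9 CPM with BMS-582949, but without Spn to 45.9 and 39.3 against 34.8 and 38.0 CPM. The call for Vcan was lost in 3 of 12 alternatives, and without BMS-582949 replicate 1 the list had 1 higher and 3 lower.

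Markers of B cells, mast cells and T and NK cells were scarce. Of 6 B cell markers 4 were tested and none was called, summing to between 5.86 and 6.72 CPM in every library. Mast cell and basophil markers summed to at most 2.09 CPM, 2 were tested and fell (none once DMSO replicate 2, or else BMS-582949 replicate 2, was dropped, and 1 once DMSO replicate 1 was), and Mcpt4, Tpsb2 and Fcer1a were at 0. For T and NK cells, 1 marker was tested and not called, the list summed to 1.71 to 3.21 CPM, and Cd3e, Cd3g, Cd8a and Ncr1 were at 0. Of 7 tested neutrophil and granulocyte progenitor markers 2 fell, with Ltf at -1.22 (none without DMSO replicate 2, 1 without DMSO replicate 1 or BMS-582949 replicate 1), Ly6g was at 0, and the list summed to 12.8 to 20.5 CPM. Of 2 tested dendritic cell markers 1 fell, Itgax at -0.92 (2 lower with limma-voom, and 1 higher and 2 lower when BMS-582949 replicate 1 was dropped), with Siglech at 0 and a summed level of 16.8 to 33.9 CPM. Of 7 tested stromal markers 5 fell, led by Col3a1 at -0.98, Pdgfrb at -0.63 and Col1a1 at -0.56, with sums of 701.5 to 766.3 CPM with DMSO and 495.1 to 497.9 CPM with BMS-582949; with library size alone 2 fell.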

How the data were processed

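The authors deposited 1 table of raw read counts by gene for the 4 libraries. The submitters' processing notes name Trimmomatic 0.36, HISAT2 2.0.4, DESeq2 1.30.1 and the build GRCm38; the counting tool, annotation and strand setting were not given in the sources used here. Depth was 35331889 and 36178333 counts with DMSO and 39255925 and 37455168 with BMS-582949. GENCODE M21 gave names and exons for 22022 of 22036 Ensembl identifiers.

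Counts were fitted with edgeR 4.0.16 in R 4.3.3: filterByExpr with a minimum count of 10 (13214 genes kept), TMM scaling, and a quasi-likelihood F test over all 4 libraries without covariates. Benjamini-Hochberg adjustment ran over all tested genes, and genes were called at an adjusted p under 0.05. The standard error of a log2 fold change is its size divided by the square root of F. The fit was tested on simulated data. The labels do not say whether libraries of a group came from separate cultures or animals, so a p-value reflects only how these samples spread, and that spread may be technical. Libraries of a group differed by more than sampling noise (chi-square over its degrees of freedom 9.62 and 13.7) and were kept as 2 samples each. CPM per kb is TMM-scaled CPM over the merged exon length.

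Coding sequences were aligned with Biopython 1.88, in place of the planned protein alignment. Sequences come from GENCODE M21 and RefSeq (GRCm38.p6).

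The members and gene lists were chosen with earlier results of these data known. Named are the members, other Ms4a genes with a count, the Tmem176 pair, called partners, up to 3 called genes per marker list with a mean of at least 1 CPM, called neighbours past 2-fold and the 2 genes most like each member. The values of 1 marker gene that this rule takes are left out. Alternatives were DESeq2 1.42.0 and its size factors, upper-quartile scaling, library size alone, 2 other low-count filters, limma-voom (limma 3.58.1), a replicate block, a stricter adjusted p of 0.01, and leaving out each library.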

Additional observations from a re-analysis of the deposited data

How the results depend on the processing

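Over 71 values of the members under 12 alternatives, none changed direction and 66 moved by less than the spread between replicates. Log2 fold changes ranged from 2.13 to 2.57 for Ms4a6b, 1.84 to 2.26 for Ms4a6c, 0.63 to 1.17 for Ms4a7, 0.29 to 0.74 for Ms4a6d, 0.53 to 1.34 for Ms4a4a and 1.26 to 2.0 for Ms4a4c, which a minimum of 1 CPM in 2 libraries removed. Of 515 values for 43 other named genes, 491 kept direction and call, 23 lost the call, and Fcer1g reversed to 0.0734 with library size alone. That setting also gave 6738 genes called higher and 2240 lower, against 4035 and 3919, and a median log2 fold change of 0.41 over all genes, which every gene shares.

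Leaving out 1 library gave 3615 to 3711 genes called higher and 3509 to 3903 lower. Replicate numbers are shared only as numbers: same-numbered libraries had a correlation of deviations of -0.078. With a replicate block, 3923 genes were called higher and 3830 lower. Depth limits Ms4a4a and Ms4a4c, whose libraries hold 5 to 105 counts.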
